A study of Mus musculus with 10 samples.

Results

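The comparison described here is of plantaris muscle after 3 d of overload with and without an agent that blocks signalling by platelet-derived growth factor (PDGF). It was chosen by sample label: 2 pools labelled as 3 day treatment were set against 2 pools labelled as 3 day control, which makes 4 of the 10 pools of the series. The mice were male C57BL/6. The plantaris, a fast muscle of the calf, was overloaded by synergist ablation, the surgical removal of muscles that share its work. The 3 d control pools were overloaded without the inhibitor, and the 3 d treatment pools were overloaded with it, so both groups carry the surgery. The sources used here name neither the inhibitor, its dose and schedule, nor the age of the mice. The other pools were 2 after 10 d of overload, 2 after 10 d of overload with the inhibitor and 2 of muscle that was not overloaded. Each pool held equal amounts of RNA from 4 muscles, and the labels leave unsaid whether partner pools are from separate mice. A p-value here therefore measures only the spread between pools, which may be in part technical.

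PDGFs are secreted dimers made from the chains Pdgfa, Pdgfb, Pdgfc and Pdgfd. They bind the receptor tyrosine kinases Pdgfra and Pdgfrb, which signal through the Ras-ERK and phosphoinositide 3-kinase pathways and drive mesenchymal cells to divide, migrate and lay down matrix. In muscle Pdgfra marks fibro-adipogenic progenitors and Pdgfrb marks pericytes and vascular smooth muscle cells, while mature muscle fibres are poor in both.

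Values are log2 units as normalised by the authors, so 1 unit is a 2-fold difference. They cover 22180 genes, of which 11282 had a mean of at least 3 log2 units over the 10 pools and the rest are called dim. The median of an array was 2.4 to 2.45. The correlation over all genes was 0.991 between partners in each 3 d group and 0.988 to 0.989 across the 3 d groups. The 12 markers of mature fibres that were checked against the labelled tissue lay between 9.85 and 12.30 in the 4 pools, with a median difference of 0.01 between the groups. In the series 2 libraries stood apart from their partners. Pool 1 of 3 d of overload was over 2 log2 units above each of the other 9 pools for 4 genes, the bone matrix gene Ibsp and the granule genes Elane, Mpo and Camp of immature granulocytes. Its Ibsp level was 6.18, against 0.94 to 2.0 in the other pools, and its Elane level was 5.21, against 1.01 to 1.75. Pool 2 of 10 d of overload was as far above all others for 7 genes, mostly of matrix and connective tissue (Acan, C1qtnf3, Ecrg4, Tnn, Lrrc15, Fbn2 and Rspo2); Acan, a cartilage proteoglycan, was at 6.06 there and 2.07 in its partner. That pool enters the shared estimate of spread at 3 d and the comparison at 10 d. Many, but not all, results that rest on either pool are given with and without it. In values without a pool, the group's lone pool is assumed to vary as the pools of the other groups do.

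No gene passed the test at 3 d. With limma and Benjamini-Hochberg adjustment the share called at an adjusted p under 0.05 was 0 percent in each direction, and the smallest adjusted p was 0.0907, for Aspm and Ctxn3. At an unadjusted p under 0.05 there were 1018 genes higher with the inhibitor (4.59%) and 993 lower (4.48%). Among genes that were not dim the shares were 5.11% and 6.22%. The inhibitor pools lay entirely above the control pools for 22.3% of genes and entirely below them for 17.7%. The mean was higher with the inhibitor for 12064 genes (54.4%) and lower for 10116. These shares are the background for every count below, and no difference named at 3 d passed the test after adjustment. The call rests on how the spread is modelled: 4 genes were called when dim genes were left out before the adjustment (Abhd6 and Ctxn3 higher, Hmgb2 and Map3k7cl lower), and 15 were called when the prior spread followed intensity, 10 higher and 5 lower. Without pool 2 of 3 d of overload 7 were called, all lower (Mpo, Elane, Camp, Ibsp, Dmp1, Mir654 and Fcnb), mostly genes high in pool 1.

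The 10 lower genes with the smallest p held several genes of dividing cells. They were Aspm, Map3k7cl, Hmgb2, Cdkn3, Palb2, Diaph3, Slc17a9, Cdk1, Ccna2 and Kif23. Aspm, a protein of the mitotic spindle pole, was at 4.15 and 4.27 without the inhibitor and at 2.73 and 2.82 with it. Its pools did not overlap, and the difference was -1.43 ± 0.14 (SE, adjusted p = 0.0907), or 2.70-fold lower. Map3k7cl was at 8.13 and 8.37 without the inhibitor and at 7.02 and 6.94 with it, a difference of -1.27 ± 0.15 (adjusted p = 0.1). Unlike Aspm, which was at 1.97 and 1.87 in muscle without overload, Map3k7cl was highest without overload, at 8.68 and 8.49, among these 3 groups. Hmgb2, a chromatin protein abundant in dividing cells, was at 4.90 and 4.85 without the inhibitor and 3.88 and 3.81 with it. The pools of Hmgb2 did not overlap, and partners were close to each other. Cdkn3, a phosphatase that acts on cyclin-dependent kinases, was at 3.81 and 4.19 without and 2.77 and 2.68 with the inhibitor.

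The 10 higher genes with the smallest p were Ctxn3, Abhd6, Saa3, Qrfpr, Inmt, Ube2dnl1, Cmtm5, Lrrc30, Fkbp5 and Clca3a2. Ctxn3, a small membrane protein, was at 5.83 and 5.45 without the inhibitor, 7.31 and 7.32 with it and 7.13 and 6.97 in muscle without overload. The inhibitor pools were above all of the others in that set, and the difference at 3 d was 1.67 ± 0.18 (adjusted p = 0.0907), or 3.19-fold. Abhd6, a lipase of monoacylglycerol, was at 5.43 and 5.45 without and 6.43 and 6.39 with the inhibitor. Saa3, an acute phase protein, was at 2.12 and 1.96 without and 4.01 and 3.84 with the inhibitor, against 2.43 and 1.79 without overload. The inhibitor pools of Saa3 were above both other groups. Fkbp5, a co-chaperone and known target of the glucocorticoid receptor, was at 5.27 and 4.94 without and 6.27 and 5.96 with the inhibitor. Inmt, a methyltransferase, was at 2.02 and 2.21 without, 3.46 and 3.16 with the inhibitor, and 4.99 and 5.17 without overload. The inhibitor pools of Inmt therefore lay between the other groups. Among the 10 higher genes Saa3, Qrfpr, Ube2dnl1 and Clca3a2 were dim, with means over the 10 pools of 2.51, 1.89, 1.01 and 1.07. Among the 10 lower genes Aspm, Cdkn3, Palb2 and Slc17a9 were dim, with means of 2.75, 2.85, 2.25 and 2.76. These 8 genes are absent where dim genes are left out.

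**Figure D1:**
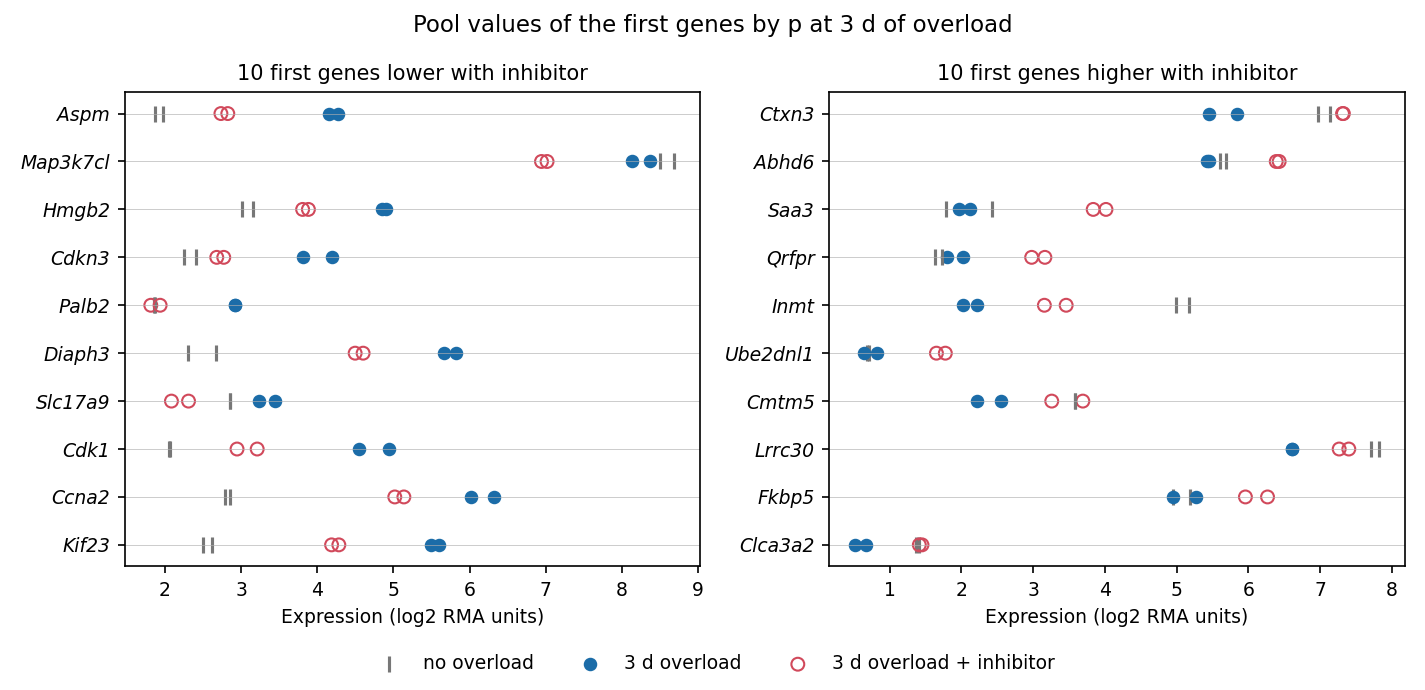
Expression in log2 RMA units of the 10 lower and 10 higher genes with the smallest p at 3 d of overload; filled circles are the 2 pools without inhibitor, open circles the 2 pools with it and grey ticks the 2 pools without overload. The genes were chosen to have separated pools, as with Aspm at 4.15 and 4.27 against 2.73 and 2.82, and none passed the test after adjustment.

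The PDGF ligands and receptors were all measured, and 0 of 6 had an unadjusted p under 0.05 at 3 d. The median difference of the 6 was -0.00, against 0.03 over all genes. Of the ligands, Pdgfc had the largest difference: it was at 6.39 and 6.32 without the inhibitor and 5.94 and 5.59 with it, a difference of -0.59 ± 0.32 (adjusted p = 0.637). Its pools did not overlap at 3 d. Pdgfb, the ligand made by endothelial cells and platelets, was at 7.02 and 6.77 without and 7.01 and 7.29 with the inhibitor. Its pools overlapped. Pdgfa was at 5.0 and 5.38 without and 5.35 and 5.25 with the inhibitor, and Pdgfd at 5.63 and 5.70 without and 5.42 and 5.52 with it. The receptor Pdgfra was at 7.82 and 7.71 without and 7.64 and 7.66 with the inhibitor, a difference of -0.12 ± 0.16 (adjusted p = 0.872). The receptor Pdgfrb was at 7.53 and 7.23 without and 7.61 and 7.58 with the inhibitor, a difference of 0.22 ± 0.16 (adjusted p = 0.718). The pools of Pdgfra did not overlap and differed by less than 0.2 at most; those of Pdgfrb did not overlap either.

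The list of receptor signalling and ligand processing and the list of ERK feedback genes had medians close to that of all genes, which was 0.03. For 30 measured genes of receptor signalling and ligand processing the median was 0.06. At an unadjusted p under 0.05, 0 were higher (4.59% of all genes) and 2 were lower (4.48% of all genes). These were Nrp1, a co-receptor, at 7.66 and 7.50 without and 7.18 and 7.29 with the inhibitor, and the adaptor Shc1, at 5.45 and 5.50 without and 5.24 and 4.94 with it. ERK feedback genes are transcribed when ERK is active and then dampen the pathway. Of 18 measured, 3 were higher (Phlda1, Spry2 and Spry4), 1 was lower (Spred1), and the median was -0.00. Over all genes the shares were 4.59% and 4.48%. Phlda1 was at 4.70 and 4.44 without and 5.13 and 5.14 with the inhibitor, a difference of 0.57 ± 0.17 (adjusted p = 0.367). Dusp6, the phosphatase that acts on ERK, was at 7.32 in both pools without the inhibitor and at 6.77 and 7.0 with it, a difference of -0.43 ± 0.19 (adjusted p = 0.552). In this feedback set 9 members had a higher mean with the inhibitor and 9 a lower mean.

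Cell cycle genes had the widest one-sided pattern. All 34 measured members had a lower mean with the inhibitor, as did 10116 of all 22180 genes. The pools of 27 did not overlap, against 17.7% of all genes on that side. An unadjusted p under 0.05 was found for 20, against 4.48% of all genes. The median difference was -0.76, and the members ran from -1.67 to -0.03. Without pool 1 of 3 d of overload, 14 members had an unadjusted p under 0.05 and the median was -0.61. Cdk1, the kinase that drives entry into mitosis, was at 4.95 and 4.55 without the inhibitor, 3.21 and 2.95 with it, and 2.06 and 2.05 without overload. The inhibitor pools thus lay between the other groups, and the difference of -1.67 ± 0.24 was 3.18-fold (adjusted p = 0.1). Mki67, which marks cycling cells, was at 7.30 and 7.14 without, 5.97 and 5.89 with the inhibitor, and 2.58 and 2.68 without overload. Top2a, the topoisomerase that untangles chromosomes, was at 6.66 and 6.49 without, 5.33 and 5.49 with the inhibitor and 2.41 and 2.71 without overload. In these genes the inhibitor pools were below the overloaded controls and above muscle without overload. The mitosis genes Kif23, Kif11, Cenpe, Prc1, Tpx2 and Ccnb2 had differences of -1.31, -1.22, -1.01, -1.01, -0.82 and -0.96. The G1 and replication genes Ccnd1, Pcna, Mcm2, E2f1 and Ccne1 had differences of -0.34, -0.24, -0.26, -0.11 and -0.03, none with an unadjusted p under 0.05. Not every replication gene had so small a difference. Mcm5, a subunit of the replicative helicase, was at 5.38 and 5.57 without and 4.85 and 5.11 with the inhibitor, a difference of -0.49 ± 0.19. The G1 and replication genes were named after their values were seen, and phases of the cycle were not tested against each other. The arrays measured whole muscle RNA, in which fewer cells of a type and less RNA per cell cannot be told apart.

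The promoters of Cdk1, Top2a and Ccnb2 from this list, and of Aspm, which is in none of the lists but had the smallest p at 3 d, are shown because cell cycle genes are known to share promoter elements. CCAAT boxes are bound by the factor NF-Y. TTTGAA is the core of the cell cycle genes homology region, an element through which genes of late cell cycle phases are repressed in resting cells. The 120 bases before the start of each gene, from RefSeq on GRCm38.p6, are given 5′ to 3′ on the gene's strand, with either motif, on either strand, in capitals. Cdk1 is at chr10:69352913-69353032 on the minus strand, Top2a at chr11:99024190-99024309 on the minus strand, Ccnb2 at chr9:70421555-70421674 on the minus strand and Aspm at chr1:139454653-139454772 on the plus strand.
Cdk1: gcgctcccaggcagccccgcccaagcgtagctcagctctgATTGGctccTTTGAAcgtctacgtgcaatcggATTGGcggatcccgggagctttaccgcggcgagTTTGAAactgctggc
Top2a: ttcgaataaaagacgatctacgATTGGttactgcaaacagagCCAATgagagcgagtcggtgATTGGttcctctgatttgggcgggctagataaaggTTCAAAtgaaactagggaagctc
Ccnb2: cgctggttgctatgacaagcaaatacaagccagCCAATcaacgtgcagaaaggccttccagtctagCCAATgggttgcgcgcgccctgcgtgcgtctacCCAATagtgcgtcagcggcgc
Aspm: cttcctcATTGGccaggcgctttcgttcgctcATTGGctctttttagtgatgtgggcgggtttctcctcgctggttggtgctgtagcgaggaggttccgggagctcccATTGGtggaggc
Cdk1 holds 2 CCAAT and 2 TTTGAA matches in this stretch, Top2a holds 3 and 1, and Ccnb2 and Aspm hold 3 CCAAT matches each and no TTTGAA. Over the 250 bases before the start and on both strands, CCAAT was present in 22 of the 28 cell cycle genes with a promoter sequence (78.6%), against 37.5% of 27025 genes. TTTGAA was present in 9 of the 28 (32.1%), against 18.3%, and both were present in 32.1%, against 6.45%. A match describes the letters of the window and does not show that a factor is bound.

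Macrophage genes were mostly lower. Of 29 measured, 11 were lower and 0 higher at an unadjusted p under 0.05, against 4.48% and 4.59% of all genes. The median was -0.50. Without pool 1 of 3 d of overload the count was 4 and the median -0.30, and without pool 2 of the inhibitor group they were 4 and -0.37. Ccr2, the chemokine receptor of recruited monocytes, was at 6.51 and 6.58 without the inhibitor, 4.90 and 5.20 with it and 2.76 and 2.94 without overload. Its pools did not overlap, and the difference was -1.49 ± 0.22 (adjusted p = 0.125), or 2.82-fold lower. Arg1, the arginase of repair macrophages, was at 4.44 and 3.44 without and 2.45 and 2.76 with the inhibitor. Its difference ran from -1.84 to -0.83 when 1 pool was left out. Cx3cr1, a chemokine receptor of later macrophages, was at 4.70 and 5.03 without and 3.87 and 3.80 with it. Not every macrophage gene was on that side: Cd68, a lysosomal protein, was at 9.60 and 9.64 without and 9.99 and 9.96 with the inhibitor, a difference of 0.36 ± 0.20 (adjusted p = 0.639). Chil3 and Ly6c2 also had positive differences, of 0.61 and 0.34.

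Among 15 genes of MHC class II and dendritic cells, 5 were lower (H2-Ab1, H2-Eb1, H2-Aa, H2-DMa and H2-DMb1) and 1 was higher, Ccr7, at an unadjusted p under 0.05. Without pool 1 of 3 d of overload, or without pool 2 of the inhibitor group, the lower count was 3. H2-Ab1, a chain of the antigen-presenting molecule, was at 7.80 and 7.59 without the inhibitor, 6.39 and 6.29 with it and 5.93 and 5.79 without overload. The inhibitor pools thus came within 1 log2 unit of muscle without overload, and the difference at 3 d was -1.36 ± 0.20 (adjusted p = 0.118). H2-Eb1 was at 6.74 and 6.82 without and 5.32 and 5.24 with the inhibitor. Ccr7, a receptor of migrating dendritic cells, was at 2.15 and 2.70 without and 3.00 and 3.47 with it. Of 35 cytokines and chemokines, 1 was higher (Cxcl13) and 3 were lower (Ccl3, Ccl24 and Ccl9) at an unadjusted p under 0.05. Over all genes 4.59% were higher and 4.48% lower, so these counts of 1 and 3 in 35 are near the background. Cxcl13, which attracts B cells, was at 4.45 and 3.98 without and 5.84 and 5.29 with the inhibitor, a difference of 1.35 ± 0.29 (adjusted p = 0.248). Ccl3 was at 4.84 and 3.90 without and 3.46 and 2.92 with it. The difference of Ccl3 ran from -1.65 to -0.71 when 1 pool was left out.

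Matrix genes were lower together with fibroblast and tendon markers. Of 29 fibrillar and interstitial matrix genes, 24 had inhibitor pools entirely below the control pools, against 17.7% of all genes, and the median was -0.49. At an unadjusted p under 0.05, 11 were lower and 0 higher, against 4.48% and 4.59% of all genes. The count moved with the libraries in the fit. It was 3 without pool 1 of 3 d of overload, 5 without its pool 2, 6 and 3 without pools 1 and 2 of the inhibitor group, and 19 without either pool of 10 d of overload, while the median stayed between -0.57 and -0.44. Col1a1, the main chain of collagen I, was at 10.31 and 10.17 without the inhibitor, 9.43 and 9.32 with it and 8.02 and 7.96 without overload. Its inhibitor pools lay between the other groups, and the difference was -0.86 ± 0.24 (adjusted p = 0.355). Fn1, which encodes fibronectin, was at 10.60 and 10.54 without and 9.71 and 9.65 with the inhibitor. Elastin (Eln), Fbln1 and Thbs1 were the 3 members with a higher mean, at 0.46, 0.31 and 0.09.

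Of 20 fibroblast and fibro-adipogenic progenitor genes, 7 were lower and 0 higher, with a median of -0.36, and the count was 4 without pool 1 of 3 d of overload or without pool 1 of the inhibitor group. The shares of all genes at an unadjusted p under 0.05 were 4.48% lower and 4.59% higher. Thy1, a surface protein of fibroblasts, was at 6.24 and 6.25 without and 5.36 and 5.08 with the inhibitor, a difference of -1.02 ± 0.25 (adjusted p = 0.293). S100a4, also made by macrophages, was at 6.50 and 6.38 without and 5.85 and 5.71 with it. Pdgfra belongs to the same list, and its difference of -0.12 was among the small ones. Among 17 pericyte and smooth muscle genes 0 had an unadjusted p under 0.05 in either direction. Their median was 0.06, with a higher mean for 9 and a lower mean for 8. In the tendon lineage list 6 of 11 genes were lower (Mkx, Chad, Kera, Tnmd, Fmod and Tnc) and 1 was higher (Egr1, also an immediate early gene), with a median of -0.70. Without pool 1 of 3 d of overload 4 were lower and the median was -0.53, and without pool 2 of the inhibitor group 4 were lower and it was -0.71. The list score was 0.55 in pool 1 of 3 d of overload and -0.08 in its pool 2. Mkx, a transcription factor of tendon cells, was at 3.59 and 4.12 without the inhibitor, 2.78 and 2.35 with it and 3.50 and 4.02 without overload, so the inhibitor pools were below both other groups. Chad, a cartilage and tendon matrix protein, was at 7.68 and 6.30 without and 5.47 and 5.33 with it. Its difference of -1.59 was -0.90 without pool 1 of 3 d of overload and -2.29 without pool 2. Kera was at 5.96 and 5.54 without and 4.04 and 4.27 with it. Scx, the early tendon regulator, had a difference of 0.10. How much tendon each pool held was not tested.

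Immediate early genes, which are transcribed within minutes of a stimulus, were on the opposite side. Of 32 measured, 31 had a higher mean with the inhibitor, against 54.4% of all genes. Inhibitor pools lay entirely above the control pools for 18, against 22.3% of all genes. At an unadjusted p under 0.05, 10 were higher and 0 lower, against 4.59% and 4.48% of all genes. The median was 0.46. The control pools differed from each other here: the list score, which is the median over members of each value minus that gene's mean over 10 pools, was 0.44 and 0.05 in the control pools and 0.88 and 0.58 in the inhibitor pools. The count was 16 without pool 1 of 3 d of overload, 1 without its pool 2, and 3 without pool 1 of the inhibitor group. Fos, part of the AP-1 factor, was at 7.49 and 6.34 without the inhibitor, 8.27 and 8.17 with it and 5.44 and 5.77 without overload. Its difference was 1.30 ± 0.39 (adjusted p = 0.374), with control pools over 1 log2 unit apart and both inhibitor pools above them. When 1 pool was left out the difference ran from 0.72 to 1.88. Btg2, an antiproliferative gene, was at 7.64 and 7.11 without and 8.23 and 8.13 with the inhibitor. Egr1 was at 6.80 and 6.45 without and 7.17 and 7.24 with it, a difference of 0.58 ± 0.25. A CArG box, the site of serum response factor, was searched for in the 250 bases before the start. It was present in 3 of 25 immediate early genes with a promoter sequence (12.0%, against 1.62% of 27025 genes). Another motif, TGACGTCA, was also present in 3 of the 25 (12.0%, against 1.77%). Both shares rest on 3 genes, and a match does not show that a factor is bound.

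Genes of fatty acid use and lipid droplets were mostly higher. Of 27 measured, 20 had inhibitor pools entirely above the control pools, against 22.3% of all genes, and the median was 0.29. At an unadjusted p under 0.05, 8 were higher and 0 lower, against 4.59% and 4.48% of all genes. The count was 2 without pool 1 of 3 d of overload and 4 without pool 1 of the inhibitor group. Plin5, which coats lipid droplets next to mitochondria, was at 3.13 and 2.55 without the inhibitor, 5.16 in both pools with it and 6.24 and 5.42 without overload. This difference of 2.32 ± 0.44 (adjusted p = 0.225), or 4.99-fold, left the inhibitor pools below muscle without overload. Their mean differed from that of muscle without overload by -0.67. Pnpla2, the lipase that starts triglyceride breakdown, was at 9.24 and 9.03 without, 10.03 and 9.84 with the inhibitor and 9.68 and 9.85 without overload. Smaller differences were seen in the carnitine shuttle genes Slc25a20 (0.41) and Cpt2 (0.33) and in Ppard (0.29), a nuclear receptor that drives such genes. Oxidative phosphorylation was not part of this pattern by count, with 0 of 30 genes at an unadjusted p under 0.05 and a median of 0.02. The sterol gene Cyp51 was at 5.80 and 5.87 without and 4.78 and 4.84 with the inhibitor, a difference of -1.03 ± 0.18 (adjusted p = 0.204), while it was the single member of 16 cholesterol synthesis genes at an unadjusted p under 0.05.

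Genes of atrophy, FoxO and autophagy had 8 of 20 higher and 0 lower, with a median of 0.29, and the count was 4 to 5 when any 1 pool of the 3 d groups was left out. The shares of all genes at an unadjusted p under 0.05 were 4.59% higher and 4.48% lower. Fbxo32, the muscle ubiquitin ligase atrogin-1, was at 8.34 and 8.63 without the inhibitor, 9.51 and 9.14 with it and 9.99 and 10.04 without overload. Its difference was 0.84 ± 0.18 (adjusted p = 0.248), and the inhibitor pools lay between the other groups. Trim63, the other classical atrophy ligase, was at 8.05 and 8.22 without and 8.54 and 8.14 with the inhibitor, and its pools overlapped. The autophagy genes Map1lc3a and Gabarapl1 had differences of 0.65 and 0.42.

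**Figure D2:**
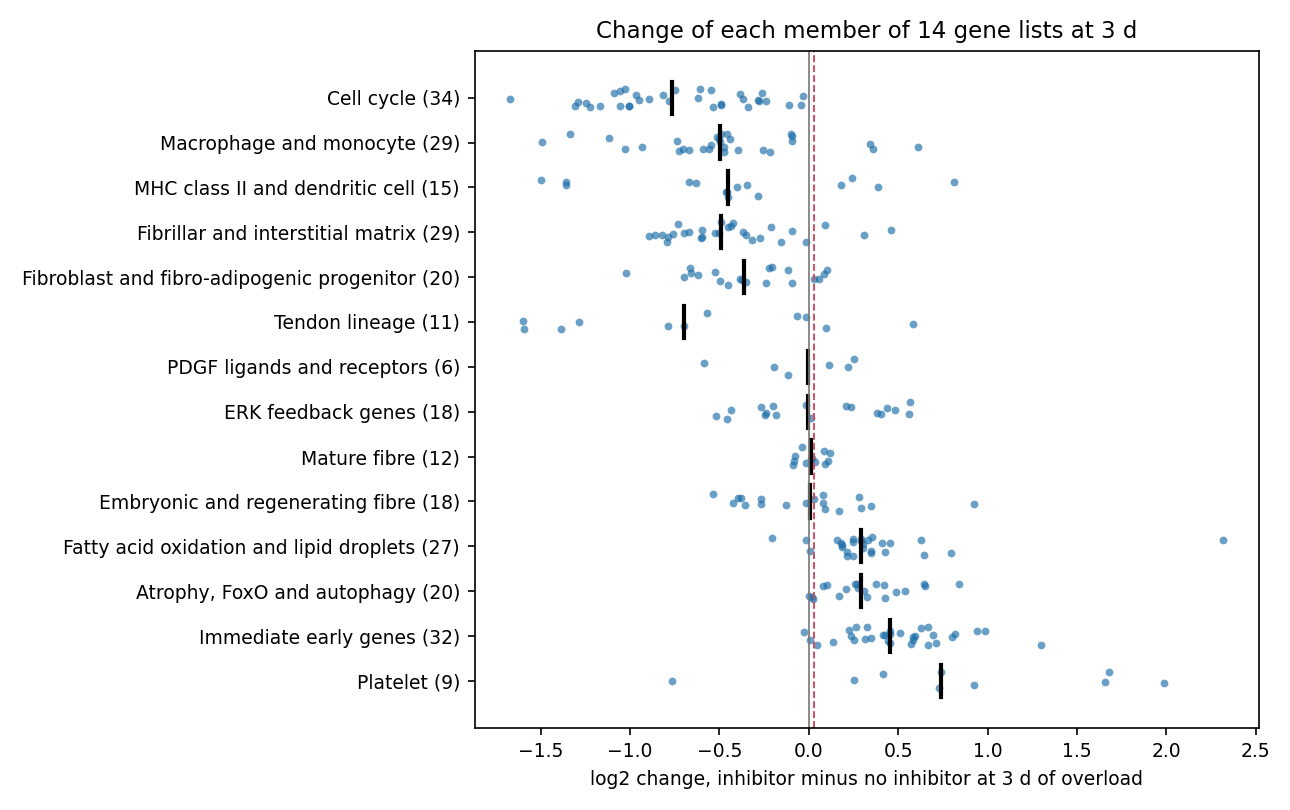
Log2 difference between inhibitor and no inhibitor at 3 d of overload for each measured member of 14 gene lists, with the number of members in brackets; the black bar is the list's median and the dashed line the median of all genes at 0.03. Cell cycle members ran from -1.67 to -0.03 and immediate early genes from -0.03 to 1.30, while the 12 mature fibre genes lay between -0.09 and 0.12.

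Platelet genes were higher with 1 exception. Of 9 measured, 5 were higher (Gp9, Tubb1, Ppbp, Gp6 and Itga2b) and 1 lower (Pf4) at an unadjusted p under 0.05. The shares of all genes were 4.59% and 4.48%, and the median of the list was 0.74. The higher count was 3 without pool 1 of 3 d of overload and 1 without its pool 2 or without pool 2 of the inhibitor group. Gp9, part of the receptor for von Willebrand factor, was at 4.57 and 4.34 without the inhibitor, 6.02 and 6.20 with it and 5.75 and 5.33 without overload. The difference was 1.66 ± 0.38 (adjusted p = 0.283). Pf4, a chemokine of platelets that macrophages can also make, was at 6.47 and 6.04 without, 5.48 and 5.50 with the inhibitor and 4.0 and 3.82 without overload. The amount of blood in the pools was not tested.

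Granulocyte genes depended on pool 1 of 3 d of overload. Of 26 neutrophil genes, 0 had an unadjusted p under 0.05, and the median was -0.01. Only 4 of the 26 were at 3 log2 units or more in all 4 pools. Without pool 1 there were 10 higher genes and a median of 0.48, and without pool 2 there were 7 lower genes and a median of -0.43. The direction of this list therefore turned with the control pool that was kept. Retnlg, a neutrophil gene, was at 5.58 in pool 1, 1.62 in pool 2 and 5.25 and 4.94 in the inhibitor pools. For 9 genes of granulocyte precursors the mean level was 3.97 in pool 1 and 2.36 in pool 2, against 2.38 and 2.35 with the inhibitor. Only 1 of the 9 was at 3 log2 units or more in all 4 pools. The median difference of that list was -0.72 with pool 1 and -0.03 without it.

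The 12 mature fibre genes had small differences, and none had an unadjusted p under 0.05. Myh4, the myosin of the fastest fibres, was at 11.76 and 11.85 without and 11.84 in both pools with the inhibitor. Of 17 fast fibre genes 1 was higher (Mylk2) and 2 were lower (Pvalb and Casq1), with a median of -0.02, and of 11 slow fibre genes 0 had an unadjusted p under 0.05. Without pool 1 of 3 d of overload the fast fibre list had 0 higher and 1 lower. Pvalb, the calcium-binding parvalbumin of fast fibres, was at 10.65 and 10.54 without and 9.97 and 10.19 with the inhibitor, a difference of -0.52 ± 0.13 (adjusted p = 0.304). Its pools did not overlap. Mylk2, the myosin light chain kinase of skeletal muscle, was at 8.62 and 8.91 without and 9.14 and 9.15 with it, a difference of 0.38 ± 0.16 (adjusted p = 0.524). Of 18 embryonic and regenerating fibre genes 1 was higher (Sln) and 1 lower (Nes), with a median of 0.01. Sln, which encodes sarcolipin, an inhibitor of the calcium pump, was at 7.57 and 7.82 without the inhibitor, 8.78 and 8.46 with it and 2.43 and 3.75 without overload. Both overloaded groups were thus far above muscle without overload. Of 18 satellite cell and myoblast genes 1 was higher (Myf6) and 1 lower (Vcam1). Over all genes 4.59% were higher and 4.48% lower, so counts of 1 in 17 or 18 genes are near the background. Pax7, the marker of satellite cells, was at 3.77 and 3.16 without and 4.25 and 3.21 with the inhibitor, and its pools overlapped. Myod1 was at 6.72 and 6.16 without and 6.75 and 6.64 with it. At the neuromuscular junction 3 of 14 genes were higher (Musk, Dok7 and Rapsn, which organise receptor clustering) and 1 was lower (Ache, which breaks down acetylcholine). Musk was at 8.68 and 8.80 without and 9.31 and 9.19 with the inhibitor, a difference of 0.51 ± 0.13 (adjusted p = 0.311).

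The same inhibitor was compared at 10 d on other pools, although both comparisons use 1 shared estimate of spread. There 5 genes rose (0.0225%) and 18 fell (0.0812%) at an adjusted p under 0.05. The total of 23 became 0 to 180 when 1 pool was left out, with 180 without pool 1 of 10 d of overload and 0 without its pool 2, without either 3 d inhibitor pool or without pool 2 of the 10 d inhibitor group. It was 1 without pool 1 of the 10 d inhibitor group and 2 without either pool of muscle without overload. All 18 that fell at 10 d had a lower mean at 3 d, as did 10116 of all 22180 genes. Of the 18, 11 had an unadjusted p under 0.05 at 3 d, against 4.48% of all genes. Of the genes lower at an unadjusted p under 0.05 at 3 d, 71.9% were lower at 10 d, against 48.4% of all genes, and of those higher at 3 d, 61.8% were higher at 10 d, against 51.6%. All of the 10 lower genes with the smallest p at 3 d were lower at 10 d with an unadjusted p under 0.05, against 6.25% of all genes. Of the 10 higher genes 8 were higher at 10 d, 3 of them at an unadjusted p under 0.05, against 4.36%. Genes picked by a small p tend to have a small estimate of spread, and the same estimate sets their p at the other time. The shares of all genes are therefore not a like comparison for these counts by p. Aspm and Ctxn3 passed the test at 10 d, with differences of -1.38 (adjusted p = 0.0256) and 1.32 (adjusted p = 0.0498). In the cell cycle list 32 of 34 genes were on the same side at both times, against 12474 of all 22180 genes. The median of this list was -0.63 at 10 d, or -0.72 without pool 2 of 10 d of overload. The matrix list had a median of -1.05 at 10 d, with 23 of 29 genes lower at an unadjusted p under 0.05, against 11 at 3 d. Without pool 2 of 10 d of overload the median at 10 d was -0.57 and 16 of 29 genes were lower; without its pool 1 they were -1.54 and 27. The matrix score differed between the control pools at 10 d, at 0.33 and 1.34, and was -0.18 and -0.23 with the inhibitor.

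No gene passed the test of the difference between the inhibitor's effects at 3 d and 10 d, in limma with Benjamini-Hochberg adjustment (smallest adjusted p = 0.516), while 6.47% had an unadjusted p under 0.05. Among immediate early genes 9 of 32 had an unadjusted p under 0.05 for this difference, all of them more positive at 3 d (3.65% of all genes; 2.82% were more negative), and the median at 10 d was -0.08. That count was 15 without pool 1 of 3 d of overload, 3 without its pool 2, 5 without pool 1 of the 3 d inhibitor group, 6 without pool 2 of 10 d of overload and 4 without pool 2 of the 10 d inhibitor group. Among fatty acid genes 9 of 27 did, also all more positive at 3 d, with a median of -0.10 at 10 d. For these genes the count was 3 without pool 1 of 3 d of overload, without pool 1 of the 3 d inhibitor group or without pool 1 of 10 d of overload. It was 5 without pool 2 of 3 d of overload or without pool 1 of the 10 d inhibitor group, 6 without pool 2 of the latter and 12 without pool 2 of 10 d of overload. Plin5 was at 5.03 and 3.58 without and 4.10 and 4.20 with the inhibitor at 10 d, so its pools overlapped then. Pf4 had the smallest p for the difference between times among the genes named here. At 10 d it was at 4.35 and 4.62 without and 5.45 and 5.46 with the inhibitor, a difference of 0.97 against -0.77 at 3 d. Csf3r, the receptor for granulocyte colony-stimulating factor, was at 4.74 and 4.54 without and 4.54 and 4.69 with the inhibitor at 3 d. At 10 d it was at 3.29 and 3.31 without and 4.54 and 4.53 with it (adjusted p = 0.0256).

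**Figure D3:**
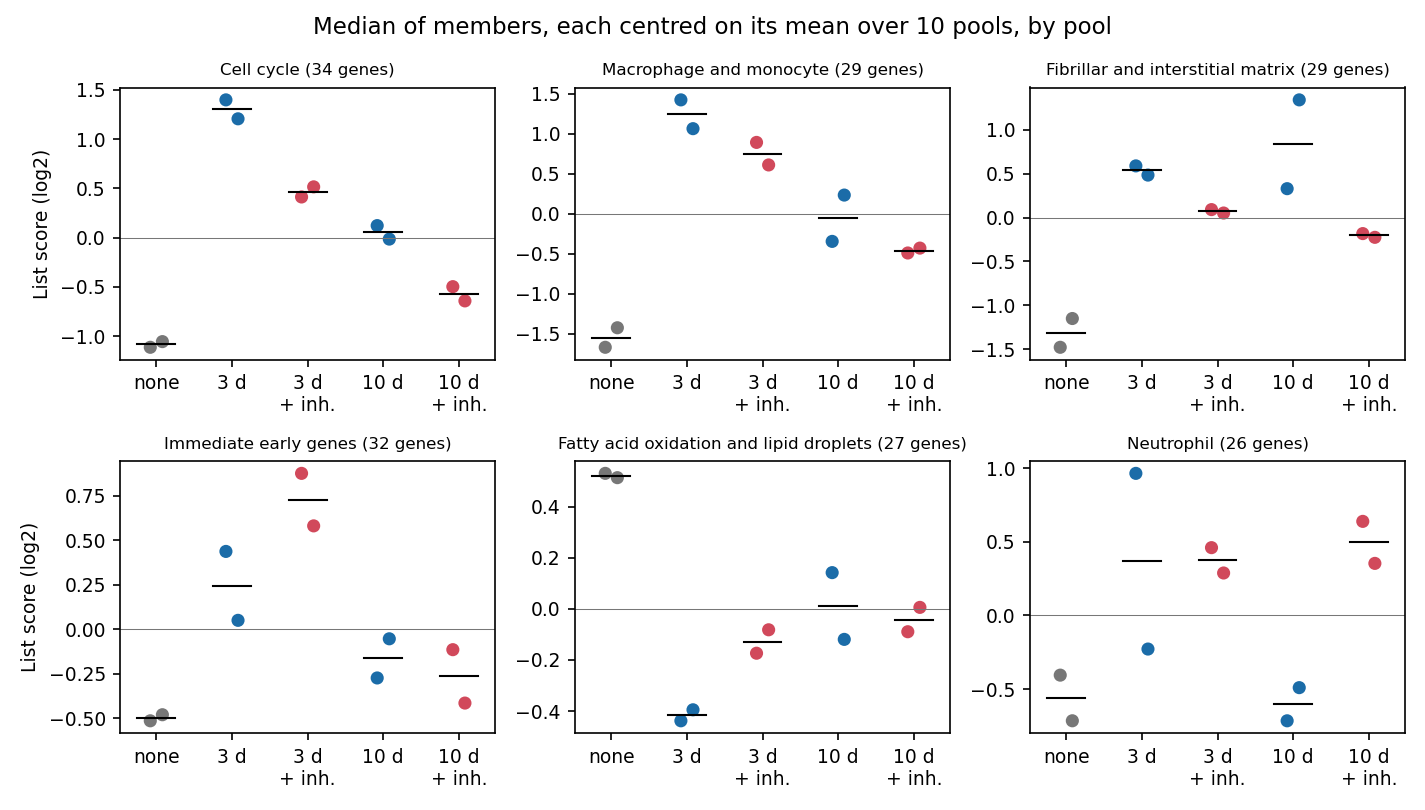
List score, the median over members of each log2 value minus that gene's mean over 10 pools, for 6 gene lists in each of the 10 pools; grey is no overload, blue overload, red overload with the inhibitor, and the line is the mean of 2 pools. Cell cycle scores were 1.40 and 1.21 at 3 d without and 0.41 and 0.52 with the inhibitor, whereas neutrophil scores of the control pools at 3 d were 0.97 and -0.23.

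**Figure D4:**
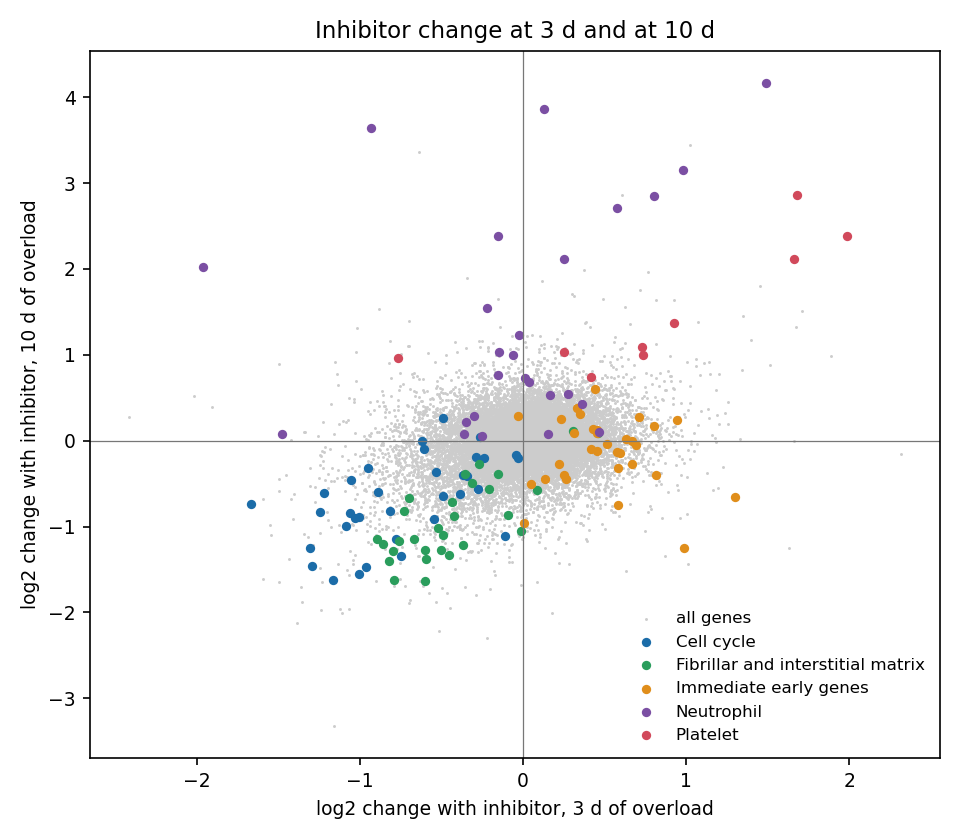
Log2 difference with the inhibitor at 3 d on the horizontal axis and at 10 d on the vertical axis, with all 22180 genes in grey and members of 5 lists in colour. Cell cycle and matrix genes lie mostly in the lower left, with medians of -0.76 and -0.49 at 3 d, and immediate early genes lie mostly to the right of 0 with a median of 0.46.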

How the data were processed

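RNA was extracted with Qiazol, per the labels' protocols, and measured on Mouse Gene 2.1 ST arrays. The labels name both the GeneChip WT PLUS and the NuGEN Ovation PicoSL kits. The authors deposited log2 values of 41345 probe sets on 10 arrays; the submitters' processing notes name RMA, oligo and limma, without versions. RMA quantile-normalises arrays, which hides any shift common to most genes, and it compresses differences of dim genes. No source used here gives the genome build of the probe sets. Here, 23521 probe sets with 1 symbol gave 22180 genes, each by its brightest probe set. Each was fitted in limma 3.58.1 (R 4.3.3) with a coefficient for each of the 5 groups and 10 arrays in the fit (5 residual and 3.58 prior degrees of freedom) and called at a Benjamini-Hochberg adjusted p under 0.05. Values after ± are standard errors of that fit. The number of arrays limits the precision. The steps were tested on simulated data. Where under 10 genes passed, the 10 with the smallest p and separate pools were named in each direction, leaving out unnamed, olfactory, vomeronasal, small RNA, predicted and antigen receptor genes; each list gave its 2 members with the smallest p. Other list members were named after their values were seen. The comparison, its members and the 48 gene lists were chosen with earlier results of these data known.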

Additional observations from a re-analysis of the deposited data

Results flagged for a closer look

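The inhibitor pools of 13 named genes lay on opposite sides of the control pools at 3 d and 10 d, with an unadjusted p under 0.05 for the difference of the effects, and none passed that test after adjustment (limma, smallest adjusted p = 0.516). The difference, 3 d minus 10 d in log2 units, was -1.73 for Pf4, a platelet chemokine, and -1.41 for AB124611. It was 2.15 for Gem, a small GTPase, 1.95 for Fos, 1.58 for Mx2, 1.43 for Fkbp5 and 1.31 for Prdm8. For Fbxo32 it was 1.21, and for the pericyte gene Higd1b it was also 1.21. The endothelial genes Aqp1 and Sox18 had 0.86 and 0.58, Pdgfrb had 0.61, and Plin1, which coats lipid droplets of adipocytes, had -0.88. Genes with a small p were preferred when these were named. Mx2, annotated as a transcribed pseudogene, was dim, as were Higd1b and Plin1, with means over the 10 pools of 1.44, 2.92 and 2.76.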

How the results depend on the processing

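No paired analysis was possible because the labels number the pools in 1 series over all groups, so no number is shared between groups. At 3 d, leaving out dim genes gave 4 called genes, an intensity trend in the prior 15, and both together, an alternative chosen after seeing the data, 36; each other change of method gave 0. Leaving out 1 pool gave 0 to 7, with 7 without pool 2 of 3 d of overload. At 10 d the count of 23 became 3 with only its own pools, 50 without dim genes, 0 over all probe sets, 180 with an intensity trend and 337 with the trend and without dim genes, and 0 to 180 when 1 pool was left out. For the difference between times it was 0 to 14 when 1 pool was left out. The value of Csf3r at 3 d ran from -0.13 to 0.078 and that of Pdgfa from -0.077 to 0.30 over these omissions. Limits are 2 pools per group and dim genes, whose differences are compressed.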
